A study of Arabidopsis thaliana with 24 samples.

Results

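Nuclear genes of the photosynthetic light reactions were followed in developing seeds of Arabidopsis thaliana. The set held 47 of the 33597 loci in the deposited count table, chosen by function, and all 47 were found there. It comprised 9 genes of the main antenna of photosystem II (LHCII: LHCB1.1 to LHCB1.5, LHCB2.1 to LHCB2.3 and LHCB3), 5 genes of its minor antenna (LHCB4.1 to LHCB4.3, LHCB5 and LHCB6), 6 genes of the photosystem I antenna (LHCA1 to LHCA6), 12 photosystem I subunit genes (PSA), 10 photosystem II subunit genes (PSB) and 5 electron transport genes (PETE1, PETE2, PETC, FD2 and FNR1).

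Seeds of 8 genotypes were dissected from siliques at 15, 17 and 21 days after flowering (DAF), and their RNA was sequenced to ask which genes set seeds that die on drying apart from seeds that survive it. The wild types were the ecotypes Wassilewskija (Ws), Landsberg erecta (Ler) and Columbia 0 (Col-0). The mutants lec1-1 and lec2-1 were compared with Ws, abi3-5 and the weak allele abi3-1 with Ler, and fus3-3 with the Col-0 seeds. The intolerant mutants were lec1-1, abi3-5 and fus3-3, and lec2-1 was tolerant. For abi3-1 the sample labels say intolerant whereas the series design says tolerant, and the design was followed. Siliques came from 24 plants, and RNA was pooled to 1 library per genotype and day and amplified before sequencing, so the days served as the repeats of a genotype and the p-values measure the spread between these pooled libraries.

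In photosynthesis, antenna proteins hold chlorophyll and pass absorbed light energy to the photosystem cores. Photosystem II takes electrons from water, the cytochrome complex and plastocyanin carry them on, and photosystem I passes them to ferredoxin and on to NADP. The core proteins are mostly encoded in the plastid, whereas the antenna and many small subunits are encoded in the nucleus, and embryos of Arabidopsis are green for a time before they lose chlorophyll and dry.

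The upstream sequences of 4 members are shown as examples: LHCB1.3 had the most counts, PSBQ2 held the most kinds of searched motif, PETC was 1 of 6 members called higher in no mutant, and LHCB4.3 was called lower in fus3-3. Each is the 250 bases before the annotated gene start in the RefSeq annotation of build TAIR10.1, written 5′ to 3′ on the gene's strand, with matches to the searched motifs in capitals.
LHCB1.3, chr1:10477635-10477884, plus strand: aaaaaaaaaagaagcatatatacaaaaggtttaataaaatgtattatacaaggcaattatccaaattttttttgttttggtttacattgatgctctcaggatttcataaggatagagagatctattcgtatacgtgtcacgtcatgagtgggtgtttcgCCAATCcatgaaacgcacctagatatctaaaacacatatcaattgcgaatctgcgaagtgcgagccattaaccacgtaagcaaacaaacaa
PSBQ2, chr4:2673244-2673493, minus strand: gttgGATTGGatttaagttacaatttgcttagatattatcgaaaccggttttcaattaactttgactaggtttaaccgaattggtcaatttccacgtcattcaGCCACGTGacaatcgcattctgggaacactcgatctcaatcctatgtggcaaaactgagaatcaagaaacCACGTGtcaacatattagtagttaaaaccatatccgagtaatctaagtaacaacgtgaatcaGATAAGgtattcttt
PETC, chr4:1439896-1440145, plus strand: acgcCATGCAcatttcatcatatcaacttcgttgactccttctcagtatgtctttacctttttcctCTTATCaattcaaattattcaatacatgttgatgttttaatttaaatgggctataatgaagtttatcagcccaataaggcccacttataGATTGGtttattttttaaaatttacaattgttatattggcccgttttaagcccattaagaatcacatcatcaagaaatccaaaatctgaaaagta
LHCB4.3, chr2:16745378-16745627, plus strand: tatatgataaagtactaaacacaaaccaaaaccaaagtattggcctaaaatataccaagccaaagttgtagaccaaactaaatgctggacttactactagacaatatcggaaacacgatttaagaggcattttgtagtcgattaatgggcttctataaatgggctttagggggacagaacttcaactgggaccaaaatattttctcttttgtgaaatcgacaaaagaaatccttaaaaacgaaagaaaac
The 5 motifs searched on both strands were the G-box CACGTG, the I-box GATAAG, the CCAATC element, the RY core CATGCA and the ABRE ACGTGGC, of which the G-box and the ABRE can overlap. The G-box was found in 8 of the 47 members (17%) and in 6.49% of 27443 upstream windows of the same length. The I-box was found in 12 members (25.5% against 12.3%) and CCAATC in 13 (27.7% against 10.2%), among them 5 of the 9 LHCII genes, 3 of the 6 LHCA genes and 0 of the 12 PSA genes. The ABRE was found in 8 members (17% against 3.37%) and the RY core, the element that B3 factors such as ABI3, FUS3 and LEC2 bind, in 5 (10.6% against 8.43%). These matches describe letters in the window and say nothing of binding.

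The 23 distinct libraries, named here by genotype and day, held 1670355 to 6531673 counts each. For lec2-1 the deposited values of days 15 and 17 were the same throughout, which left 1 library for both, drawn at day 16. Col-0 17 and Col-0 21 went against the order of days in the other wild types: the seed regulator gene FUS3 was at 22.0, 0 and 13.8 normalized CPM in Col-0 15, 17 and 21, against 27.8, 19.5 and 0.829 in Ws and 22.4, 7.33 and 0.993 in Ler. Transcript of the mutated genes could not check the labels, because LEC1 and LEC2 had 0 to 4 counts in every library and ABI3 and FUS3 were transcribed in their own mutants too. Among 6 silique wall markers CRC had 0 counts and IND 1 count over all libraries. The summed level of the 6 was 1.93 to 8.04 normalized CPM in Ws and 6.41 to 9.99 in lec1-1. It was 1.49 to 9.83 in Ler and 4.58 to 5.68 in abi3-5, and 3.09 to 8.005 in Col-0 and 4.655 to 7.37 in fus3-3. Of the 2 wall genes with enough counts to be tested 1 was called higher in lec1-1 (4.38) and 0 in abi3-5 or fus3-3. The wall gene ALC had 0 to 2 counts in the wild types and abi3-1, 0 and 11 in lec2-1, and 6 to 38 in the intolerant mutants. Of all genes 9.15% were called lower in lec1-1, 3.75% in abi3-5 and 8.67% in fus3-3. Of the 6 seed maturation genes followed here 3 were called lower in lec1-1, 3 in abi3-5, 4 in fus3-3 and 0 in lec2-1 or abi3-1. Their summed level ranged over 85640 to 851200 normalized CPM in Ws against 40640 to 78180 in lec1-1, over 374500 to 936300 in Ler against 78410 to 135500 in abi3-5, and over 165800 to 1021000 in Col-0 against 70980 to 118900 in fus3-3, while lec2-1 (94480 to 303800) overlapped Ws and abi3-1 (210200 to 822600) overlapped Ler. For the 6 endosperm markers the summed level was 555 to 1444 in Ws against 163 to 222.5 in lec1-1, 738 to 956.5 in Ler against 79.4 to 344 in abi3-5, and 773 to 1074 in Col-0 against 71.7 to 237 in fus3-3, with lec2-1 at 913 to 1094 and abi3-1 at 343 to 721.5. The endosperm gene EPR1, the 1 marker of that list with enough counts to be tested, was lower by edgeR in lec1-1 (-2.43), abi3-5 (-2.07) and fus3-3 (-2.50), and stood at 0.03 in lec2-1 and -0.73 in abi3-1, which did not pass. The other endosperm markers had few counts, so the endosperm sums and the EPR1 test are not separate evidence. Each intolerant mutant thus had lower endosperm and maturation sums than its wild type, without overlap, and the endosperm sums of abi3-1 were also all below those of Ler. For 10 seed coat markers the summed level was higher in lec1-1 (302 to 448) than in Ws (195 to 238), without overlap. It overlapped between abi3-5 (156 to 443) and Ler (187 to 202), and between fus3-3 (323 to 479) and Col-0 (340 to 628). The part of these tissue differences in the results was not tested. In whole seeds, fewer cells of a type and less RNA per cell cannot be told apart.

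Members were low in Ws seeds and high in both lec mutants. Summed normalized CPM, which is counts scaled to a common library size with TMM factors, was 549, 472 and 343 in Ws at 15, 17 and 21 DAF. It was 5624, 16090 and 5214 in lec1-1, and 8292 and 5725 in the 2 libraries of lec2-1. Each library of either mutant stood above each Ws library.
In Ler seeds the sum started higher and went down, from 3197 at 15 DAF to 1600 at 17 and 285 at 21 DAF. The weak allele abi3-1 started at 3465, and stood at 305 and 297 afterwards. The strong allele abi3-5 was at 8415, 5785 and 4941, above every Ler and abi3-1 library.
In Col-0 seeds it went from 4206 at 15 DAF to 443 at 17 and 1091 at 21 DAF. In fus3-3 the sum went the other way, from 1843 to 9300 and 4567, so that the mutant was below Col-0 at 15 DAF and above it afterwards. As a share of all counts, the members took 0.0267% to 0.0365% in Ws and 0.861% to 2.37% in lec1-1.

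**Figure D1:**
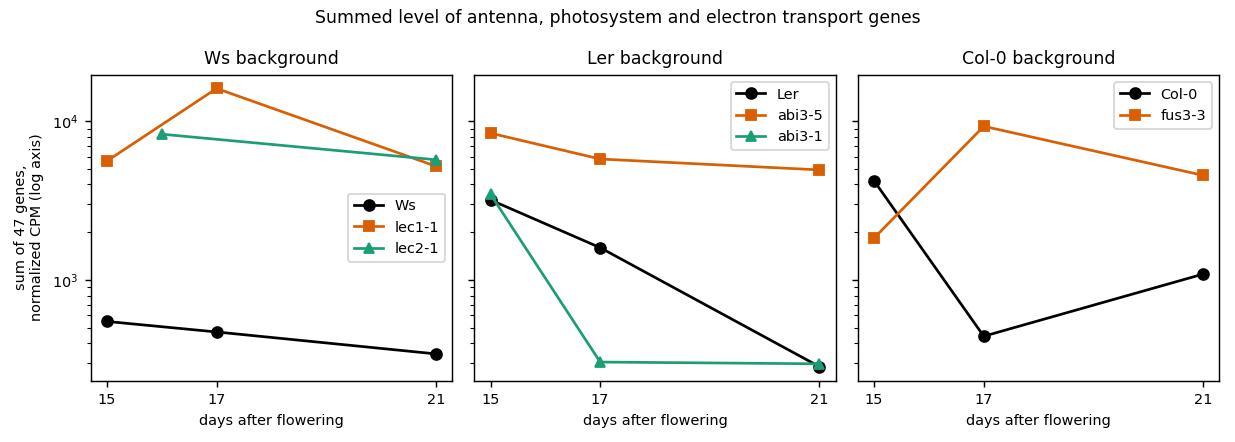
Summed normalized CPM of the 47 genes (log axis) against days after flowering, 1 panel per wild-type background and 1 point per library; the doubled lec2-1 library is drawn at day 16. The sum is lowest at 4941 in abi3-5 and at 5214 in lec1-1, falls to 285 in Ler, and crosses between Col-0 and fus3-3 after 15 DAF.

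In lec1-1 against Ws, 38 of the 47 members rose and 0 fell (edgeR quasi-likelihood test, Benjamini-Hochberg adjusted p under 0.05 over all 16085 genes tested, called below). Among all genes tested 14.5% rose and 9.15% fell. The median log2 fold change of the members was 4.67, or 4.50 with LHCB2.3 and LHCA6, which had 0 counts in Ws, set at their lower bounds, and that of all genes was 0.03. The libraries did not overlap for 44 members, all higher in lec1-1, against 23.2% of all genes; LHCB4.3, LHCA5 and PETC overlapped. Without any 1 library 30 to 41 members were called, and 28 were called in each of these fits.

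Of the LHCII genes 5 of 9 rose in lec1-1. LHCB1.3 (AT1G29930), which encodes the main trimer-forming antenna protein, was at 58.8, 45.5 and 34.5 normalized CPM in Ws and 1816, 5585 and 2098 in lec1-1, in the order 15, 17 and 21 DAF used throughout. All lec1-1 libraries were far above all Ws libraries, with a log2 fold change of 6.30 (SE 1.24, adjusted p = 0.00177, edgeR, 3 libraries of each genotype, which holds for every gene set against Ws in lec1-1). LHCB1.2 (AT1G29910) was at 6.19, 11.7 and 4.97 in Ws and 217, 984 and 192 in lec1-1, a difference of 5.89 (SE 1.3). LHCB3 (AT5G54270), whose protein joins LHCII trimers near the core, was at 6.81, 3.25 and 3.59 in Ws and 146, 498 and 92.7 in lec1-1. LHCB3 did not overlap between the genotypes and differed by 5.79 (SE 1.2). LHCB1.1 and LHCB1.5 rose as well, by 4.36 (SE 1.4) and 6.07 (SE 1.47), while LHCB1.4, the least abundant LHCB1 copy, missed the threshold with a value of 3.36 (SE 1.39, adjusted p = 0.0835 in edgeR). No LHCB2 gene passed: LHCB2.1 stood at 2.48 (SE 1.23), LHCB2.2 at 3.85 (SE 1.43), and LHCB2.3, with 0 counts in Ws and 21 in lec1-1, was at least 3.04-fold higher against a floor of 3 counts over the Ws libraries. Coding sequences of LHCB1.1, LHCB1.2 and LHCB1.3 are 95.65% to 96.39% identical, and 10.6% to 28.2% of the 50-base windows of the LHCB1 transcripts and of LHCB2.1 and LHCB2.2 recur in another member, so the split within these families is uncertain. Summed over its 5 copies LHCB1 rose by 6.17 (SE 1.302), and the 3 LHCB2 copies together stood at 3.57 (SE 1.34, adjusted p = 0.0589, edgeR).

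The minor antenna proteins link the trimers to the photosystem II core, and 3 of their 5 genes rose in lec1-1. LHCB5 (AT4G10340) was at 5.57, 7.15 and 4.14 normalized CPM in Ws and 165, 314 and 142 in lec1-1, with no overlap and a difference of 5.29 (SE 1.05). LHCB6 (AT1G15820) was at 15.5, 14.3 and 7.46 in Ws and 240.1, 646 and 124 in lec1-1, a difference of 4.81 (SE 1.26). LHCB4.1 (AT5G01530) was much closer, at 27.2, 13.0 and 37.0 in Ws and 72.4, 151 and 77.6 in lec1-1. Its libraries did not overlap, and its rise of 2.01 (SE 0.61, adjusted p = 0.0227, edgeR) lost the call without lec1-1 17 (1.39), Ws 15 (1.84) or Ws 17 (1.67). LHCB4.2 did not pass, at 1.63 (SE 0.72). LHCB4.3 (AT2G40100) was at 24.7, 8.45 and 1.93 in Ws and 4.89, 5.33 and 3.66 in lec1-1, the genotypes overlapped, and the difference was -0.77 (SE 0.72), above 0 when libraries were scaled by their totals.

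Of the photosystem I antenna genes 5 of 6 rose. LHCA2 (AT3G61470) was at 4.95, 3.25 and 1.105 normalized CPM in Ws and 79.4, 200.1 and 93.2 in lec1-1, without overlap, and rose by 5.75 (SE 1.12). LHCA3 (AT1G61520) was at 32.2, 11.7 and 3.04 in Ws and 234, 584 and 214 in lec1-1, a rise of 5.22 (SE 1.3), and LHCA4 rose by 4.1 (SE 0.98). LHCA1 to LHCA4 form the standard belt of photosystem I, whereas LHCA5 and LHCA6 link it to the NDH complex. LHCA5 (AT1G45474) was at 11.1, 8.45 and 29.6 in Ws and 13.5, 21.1 and 14.2 in lec1-1. The genotypes overlapped for LHCA5, and the difference was -0.02 (SE 0.47), above 0 with library totals. LHCA6, with 0 counts in Ws and 44 in lec1-1, was at least 6.36-fold higher.

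Photosystem I subunit genes rose in 11 of 12 cases. PSAG (AT1G55670), a subunit that faces the LHCI belt, was at 4.33, 3.90 and 2.49 normalized CPM in Ws and 69.3, 150.1 and 52.6 in lec1-1. No library overlapped, and PSAG rose by 4.80 (SE 0.92). PSAD1 (AT4G02770), 1 of 2 genes for the subunit that docks ferredoxin, was at 1.24, 1.95 and 1.105 in Ws and 49.2, 116 and 49.2 in lec1-1, a rise of 5.73 (SE 1.18). Its paralog PSAD2 (AT1G03130) was at 2.475, 1.299 and 5.52 in Ws and 8.75, 24.0 and 12.6 in lec1-1, and the difference of 2.1 (SE 0.97, adjusted p = 0.121, edgeR) did not pass although the libraries did not overlap. PSAH1, a docking subunit for LHCII, rose by 5.27 (SE 1.15), from 3.09, 3.25 and 1.93 in Ws to 65.1, 126 and 83.5 in lec1-1. PSAE1, PSAE2, PSAF, PSAH2, PSAK, PSAL, PSAN and PSAO rose by 3.90 (PSAE1) to 5.40 (PSAE2), the last on 2, 0 and 3 counts in Ws.

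All 10 photosystem II subunit genes rose, by 3.37 (PSBR) to 5.51 (PSBQ2). PSBX (AT2G06520), a small subunit of the core, was at 4.33, 3.90 and 2.49 normalized CPM in Ws and 113, 181 and 58.4 in lec1-1, a rise of 5.08 (SE 1.00). PSBW (AT2G30570) was at 14.2, 8.45 and 21.0 in Ws and 172, 419 and 144 in lec1-1, a rise of 4.11 (SE 0.82). The libraries of PSBX and PSBW did not overlap. PSBQ1 (AT4G21280), a gene for an extrinsic protein on the water-splitting side, was at 1.86, 1.299 and 0.829 in Ws and 26.5, 44.6 and 10.3 in lec1-1, and rose by 4.28 (SE 0.88). PSBO2 rested on 3 counts in Ws against 196 in lec1-1, a ratio of 28.4 (95% counting interval 9.56 to 139). PSBS, needed for the dissipation of excess light as heat, rose by 5.36 (SE 1.27).

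Electron transport genes rose in 4 of 5 cases. The plastocyanin genes PETE1 and PETE2 rose by 4.67 (SE 0.84, adjusted p = 0.000993, edgeR) and 4.50 (SE 1.00). PETE1 (AT1G76100) was at 0.619, 1.95 and 0.276 normalized CPM in Ws and 19.6, 37.3 and 10.99 in lec1-1, with no overlap. Its Ws levels rest on 1, 3 and 1 counts, so the size of its change is uncertain. The ferredoxin gene FD2 rose less, by 2.40 (SE 0.61), from 11.8, 21.4 and 44.7 in Ws to 137, 205 and 88.8 in lec1-1. FNR1, for the reductase that passes electrons from ferredoxin to NADP, rose by 3.63 (SE 1.00). PETC (AT4G03280), the Rieske protein gene of the cytochrome complex, was at 140, 155 and 36.7 in Ws and 144, 206 and 178 in lec1-1, the genotypes overlapped, and the difference of 0.87 (SE 0.69) did not pass.

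**Figure D2:**
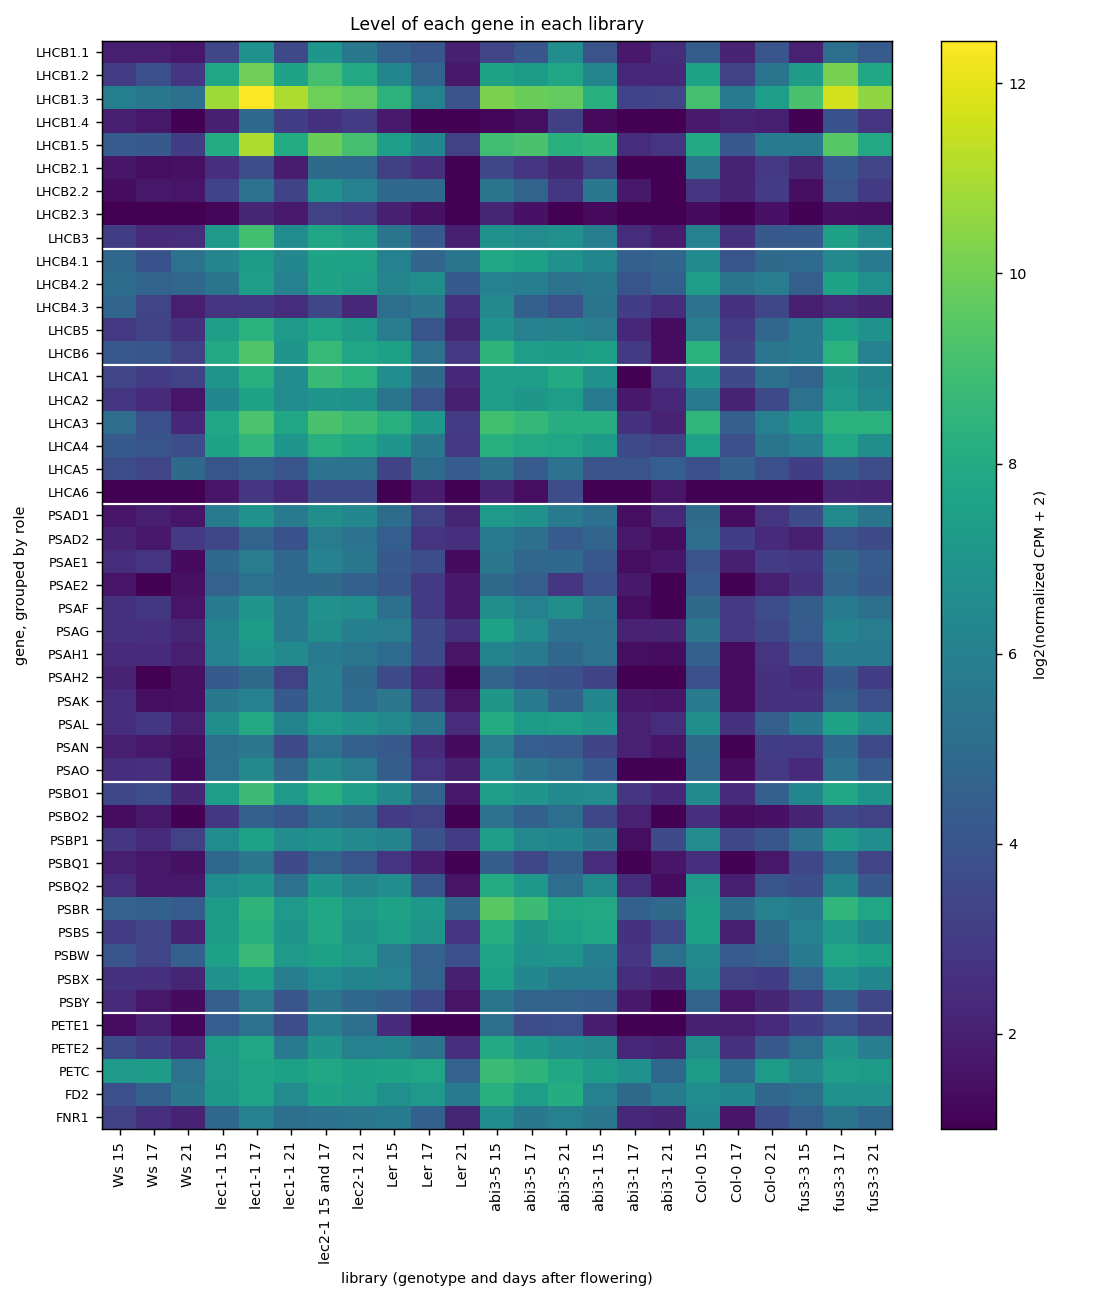
Level of each of the 47 genes (rows, grouped by role between white lines) in each of the 23 libraries (columns), as log2 of normalized CPM plus 2. The Ws columns are dark for nearly every gene except PETC, the lec1-1, lec2-1 and abi3-5 columns are bright, and Ler, abi3-1 and Col-0 are brightest at 15 DAF.

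The tolerant mutant lec2-1 was compared with the same Ws libraries as lec1-1. In lec2-1 against Ws 36 members rose and 0 fell, against 1.85% of all genes that rose and 0.0373% that fell, with a median of 5.11 (4.91 with LHCB2.3 and LHCA6 at their bounds). For 46 members, LHCB4.3 being the exception, both lec2-1 libraries were above all Ws libraries, against 15.7% of all genes. LHCB1.3 was at 979 and 785 normalized CPM in lec2-1 and fell short of the threshold (log2 difference 4.47, SE 1.18, adjusted p = 0.0596 in edgeR), while LHCB1.5, at 950.5 and 537, rose by 6.22 (SE 1.5). LHCB2.2, at 109 and 64.3 in lec2-1 against 0.619, 1.299 and 1.105 in Ws, rose by 6.46 (SE 1.5), and LHCB2.1 by 5.16 (SE 1.23). LHCB2.3 and LHCA6 were at least 14.9-fold and 23.9-fold higher. PETE1, at 57.5 and 35.9, rose by 5.90 (SE 0.88, adjusted p = 0.00139, edgeR), against the same few Ws counts as in lec1-1. The calls of the other members depended on each library of the pair: omitting Ws 15, Ws 17 or lec2-1 21 gave 1, omitting Ws 21 or the other lec2-1 library gave 3, and 2 were called without the day term. PETE1 was called whichever library was omitted.

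Set directly against each other, lec1-1 and lec2-1 differed in 0 of the 47 members by edgeR (4 at an unadjusted p under 0.05, and 0 with DESeq2), against 1.27% and 18.5% of all genes, with a median of -0.32 and a range from -2.68 to 1.83. The sign of that median was not stable: it was 0.18 with library totals, 0.16 without lec2-1 21, 0.08 without lec1-1 15, -0.99 without lec1-1 17 and -0.65 without the other lec2-1 library. Fitted on the Ws background alone, 8 members were lower in lec1-1 than in lec2-1, and no share of all genes stands beside that count. In lec1-1 against Ws that fit called 5559 of all genes, and the main fit 3808. The makeup of the LHCII transcripts is given as a description. LHCB2 took 0.525%, 0.606% and 0.453% of LHCB1 and LHCB2 counts in lec1-1 and 0.426%, 0.590% and 0.739% in fus3-3. It took 5.31% and 5.64% in lec2-1, 2.098% to 3.93% in Ws, on 3, 3 and 7 LHCB2 counts, and 4.25% to 5.71% in Col-0, on 100, 8 and 27. In abi3-5 the share was 2.69%, 1.74% and 0.537%, and in Ler 5.62%, 14.7% and 0%, the last on 49 LHCB1 counts. The lec1-1 and fus3-3 libraries thus lay below those of Ws, lec2-1 and Col-0, without overlap, though the Ws shares rest on few LHCB2 counts. In the Ler background the shares of abi3-5 and Ler overlapped, and abi3-5 21 lay within the lec1-1 range. Summed LHCB2 differed between lec1-1 and lec2-1 by -2.58 (SE 1.21, adjusted p = 0.259, edgeR), which did not pass.

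In abi3-5 against Ler 5 of the 47 members rose and 0 fell, against 4.24% of all genes that rose and 3.75% that fell, with a median of 2.24. The 5 were spread over 5 of the 6 roles. PETE1 was at 3.15, 0 and 0 normalized CPM in Ler and 33.5, 11.2 and 11.8 in abi3-5, without overlap, and rose by 3.91 (SE 0.80, adjusted p = 0.00519, edgeR, 3 libraries of each genotype). Its Ler levels rest on 8, 0 and 0 counts. LHCA2 was at 42.1, 13.0 and 1.99 in Ler and 163, 132 and 161 in abi3-5, a rise of 3.57 (SE 0.98). PSBQ1 rose by 3.03 (SE 0.84), from 4.72, 1.63 and 0 to 18.7, 8.70 and 18.7. PSAD1 rose by 3.24 (SE 0.97), from 30.7, 7.33 and 2.48 to 145, 116 and 51.2, and LHCB4.1 by 2.04 (SE 0.60), from 63.7, 24.4 and 41.2 to 223, 180.5 and 116. In all 5 the lowest abi3-5 library was above the highest Ler library, as it was for 27 members in all, against 13.1% of all genes. LHCB1.3 was at 330, 62.7 and 13.4 in Ler and 1179, 937 and 820 in abi3-5, also without overlap, and missed the threshold with a value of 3.56 (SE 1.12, adjusted p = 0.0544 in edgeR). LHCA6 rested on 2 counts in Ler and 64 in abi3-5, a ratio of 14.7 (95% counting interval 3.89 to 124).

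The call count of abi3-5 moved with the setting. It was 18 with DESeq2, 42 with library totals in place of TMM, 12 with the Ler background fitted alone and 1 without the day term. Of all genes 1952, 8029, 846 and 716 were called in either direction in these fits, in the same order, against 1285 in the main fit. Among the members, omitting Ler 15 left 2, Ler 17, Ler 21 or abi3-5 21 left 1, and abi3-5 17, lec1-1 21, Ws 15 or either lec2-1 library left 3. Omitting Col-0 17 gave 15, fus3-3 15 gave 14, and abi3-1 15, lec1-1 15 or Col-0 21 gave 8. PETE1 was called in every fit that left out 1 library. Within the same day abi3-5 exceeded Ler in 44 members at 15 DAF, 41 at 17 DAF and 46 at 21 DAF, with median differences of log2 normalized CPM plus 2 of 1.36, 1.75 and 3.28.

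No member passed the test in the weak allele. In abi3-1 against Ler 0 members were called (0 at an unadjusted p under 0.05, and 0 with DESeq2), against 0.00622% and 1.67% of all genes, with a median of -0.49 (-0.11 with library totals, where 21 members were above 0). Single libraries set the size and the sign of that median, which was -2.89 without abi3-1 15, 0.02 without abi3-1 17, -0.16 without abi3-1 21, 0.42 without Ler 15, with 30 members above 0, and -0.92 without Ler 21. LHCB1.3 was at 300.4, 7.97 and 8.43 normalized CPM in abi3-1, PSBR at 241, 21.7 and 28.9, and LHCA3 at 274, 4.35 and 2.41. Each was high at 15 DAF, within the Ler range or above it, and low at both later days. LHCA3 was at 297, 138 and 5.96 in Ler, so at 17 DAF the alleles stood at 397 (abi3-5) and 4.35 (abi3-1) with Ler between them. Set directly against each other, abi3-5 exceeded abi3-1 in 13 members, against 4.68% of all genes that were higher and 3.62% that were lower, with a median of 2.81 (5.001 without abi3-1 15) and all 47 differences above 0. Largest among the 13 was PETE1 at 4.69 (SE 0.89), and they included LHCB1.3 at 4.14 (SE 1.17), LHCA2 at 3.79 (SE 1.00) and PSAO at 3.70 (SE 1.07). Omitting abi3-1 17 or abi3-1 21 gave 1, abi3-5 21 gave 2, abi3-5 17 gave 5 and lec1-1 21 gave 8, whereas omitting Col-0 17 gave 21, fus3-3 15 gave 25 and abi3-1 15 gave 34.

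In fus3-3 against Col-0 3 members rose and 1 fell, against 10.3% of all genes that rose and 8.67% that fell, with a median of 1.52, which was 0.93 without Col-0 17 and 0.63 without both Col-0 17 and Col-0 21. LHCB1.3 was at 536, 53.1 and 171 normalized CPM in Col-0 and 575, 3216 and 1517 in fus3-3, and rose by 3.44 (SE 1.12, adjusted p = 0.0372, edgeR). PSBQ1 rose by 3.02 (SE 0.85), from 4.003, 0 and 1.38 to 9.11, 26.3 and 8.501. Neither gene overlapped between the genotypes. PSBW rose by 2.21 (SE 0.77), and its values of 85.1, 17.9 and 22.1 in Col-0 and 49.0, 219 and 181 in fus3-3 did overlap. LHCB4.3, an atypical member of the LHCB4 family, was at 39.0, 4.32 and 8.74 in Col-0 and 1.84, 3.08 and 2.23 in fus3-3, without overlap, and fell by 2.40 (SE 0.74). Its direction was the same with library totals (-1.15), where it did not pass.

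Libraries did not overlap for 4 members higher in fus3-3 (LHCB1.3, LHCA6, PSBQ1 and PETE1), against 16.2% of all genes, and for LHCB4.3 lower, against 10.7%. The counts rested on single libraries: omitting Col-0 17, Col-0 21 or fus3-3 17 left 0 members called higher, fus3-3 21 or Ler 15 left 1, and omitting Col-0 15 gave 5, lec1-1 15 gave 6 and fus3-3 15 gave 15. The call of LHCB4.3 ended when Col-0 15, Col-0 21, fus3-3 15 or fus3-3 17 was omitted. With the Col-0 background fitted alone 0 members were called in either direction.

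Day by day the order reversed. At 15 DAF 43 of the 47 members were lower in fus3-3 than in Col-0, with a median difference of -1.41 in log2 normalized CPM plus 2. At 17 DAF 45 were higher (median 3.48), and at 21 DAF 42 were higher (median 1.33). LHCB6, for example, was at 313, 8.03 and 42.8 in Col-0 and 50.6, 319 and 64.4 in fus3-3, and LHCA3 at 369, 20.4 and 61.7 in Col-0 and 119, 315 and 318 in fus3-3. Each of these is 1 library against 1 library and carries no test. In lec1-1, by contrast, 46 members were higher than in Ws at each day, with medians of 3.04, 4.34 and 3.29.

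**Figure D3:**
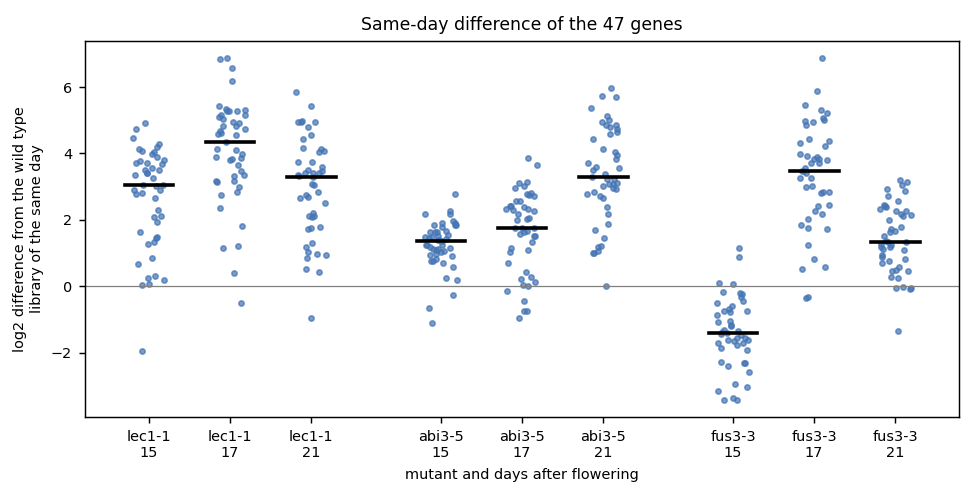
Difference of each of the 47 genes (points) between an intolerant mutant and the wild-type library of the same day, in log2 of normalized CPM plus 2, with the median as a bar. The medians are above 0 in lec1-1 and abi3-5 at every day, and in fus3-3 the median is -1.41 at 15 DAF and above 0 afterwards.

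Of the members 1, PSBQ1, was called higher in lec1-1, abi3-5 and fus3-3 alike, and it was called in lec2-1 too. In 33 members the call was shared by lec1-1 and lec2-1, which share the Ws libraries. In 6 members no mutant showed a call for higher level. These joint counts were taken for the members alone, so no share of all genes stands beside them. In the contrast of the intolerant mutants lec1-1 and abi3-5 with the tolerant lec2-1 and abi3-1, 3 members were higher and 0 lower, against 9.47% of all genes that were higher and 7.48% that were lower, with a median of 1.301 (2.29 without abi3-1 15). They were LHCB1.3 at 2.99 (SE 0.86, adjusted p = 0.0222, edgeR), PSBQ1 at 1.83 (SE 0.58) and PETE1 at 1.73 (SE 0.58). The contrast joins unlike pairs: for PETE1 lec1-1 stood below lec2-1 by a log2 difference of -1.23, and abi3-5 above abi3-1 by 4.69. Omitting abi3-1 15 gave 22, fus3-3 15 gave 9 and lec1-1 15 gave 5, abi3-1 21 left 1, and abi3-1 17, abi3-5 21, lec1-1 17 or either lec2-1 library left 0.

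**Figure D4:**
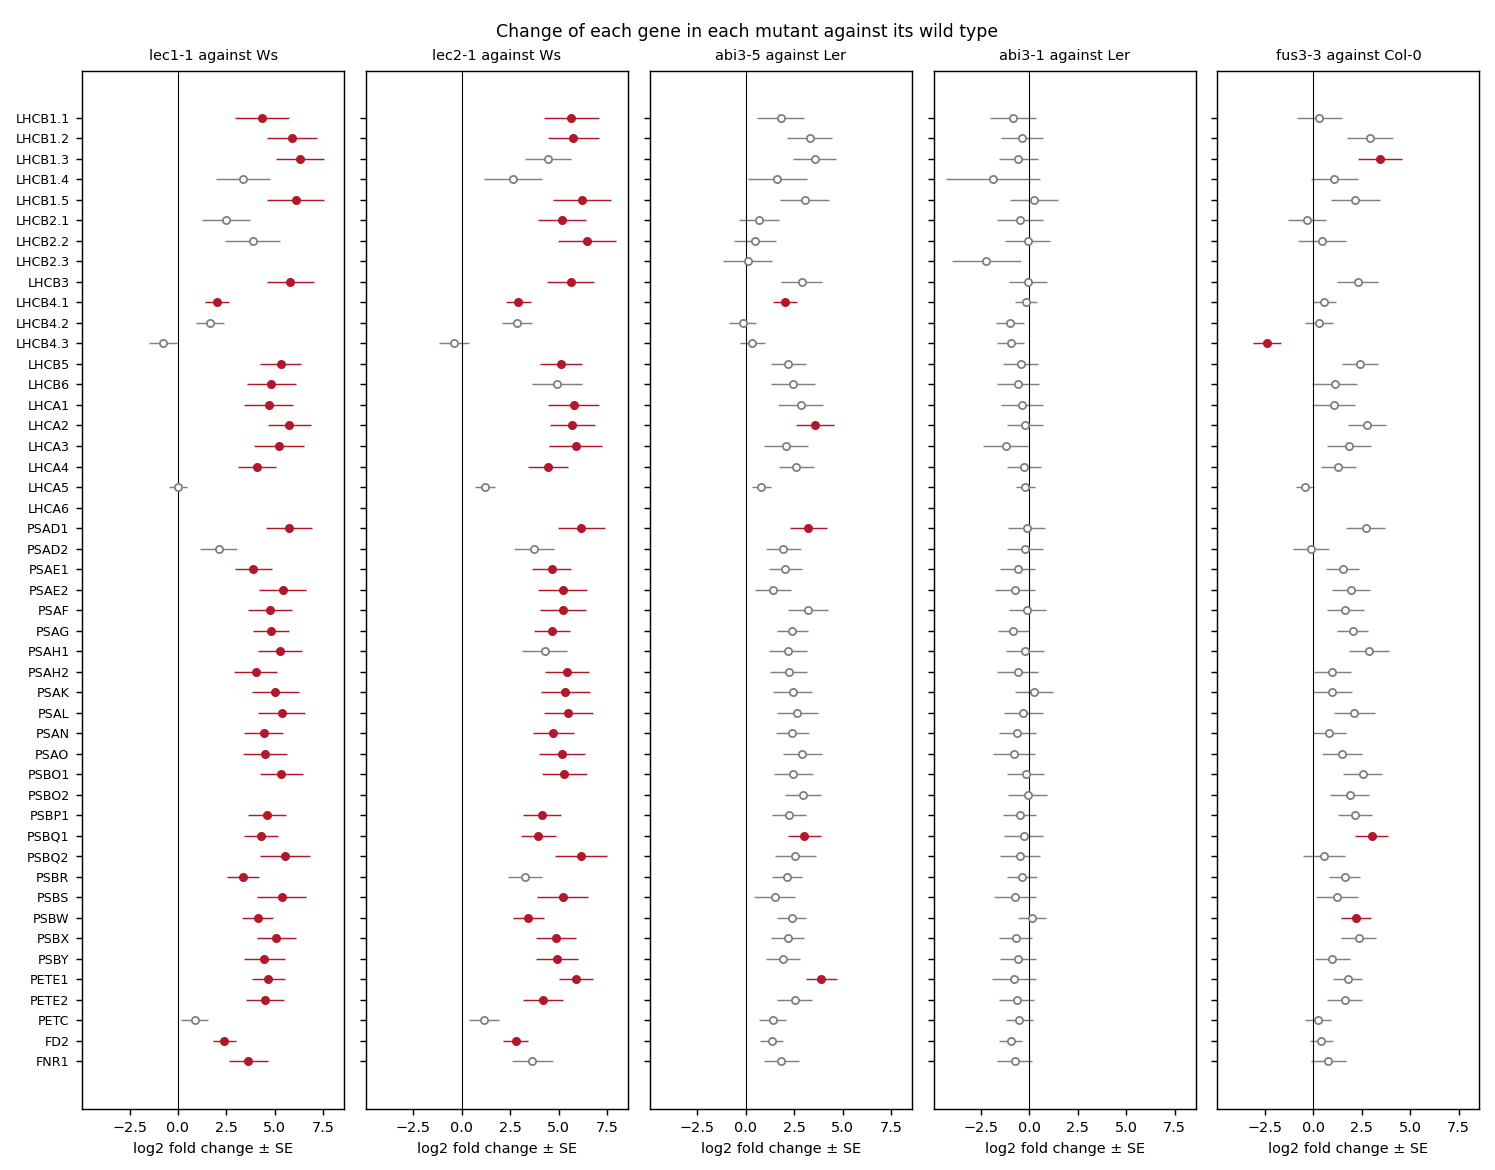
Log2 fold change with its SE for each gene (rows) in each mutant against its wild type (panels); filled red points passed an adjusted p of 0.05 and open grey points did not, and genes with 3 or fewer counts in the wild type are left out. Most genes lie between 3 and 6 in lec1-1 and lec2-1, near 2 in abi3-5 and just below 0 in abi3-1. LHCB4.3 lies below 0 in lec1-1, lec2-1 and fus3-3, and with most other genes in abi3-1.

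The changes in lec1-1, abi3-5 and fus3-3 were then compared with each other. The lec1-1 change exceeded the abi3-5 change by a median of 2.18 (1.44 without lec1-1 17 and 1.39 without Ler 15) and the fus3-3 change by a median of 2.88, and 0 members passed in either test (6 and 24 at an unadjusted p under 0.05, and 0 with DESeq2), against 0.336% and 0.00622% of all genes by adjusted p and 10.4% and 4.19% by unadjusted p. Among the wild types, Ws was below the mean of Ler and Col-0 in 46 of 47 members, with a median of -2.07, and 0 passed (25 at an unadjusted p under 0.05, and 4 with DESeq2), against 0.665% and 11.1% of all genes. Omitting Col-0 17 gave 1. At 21 DAF the sums of Ws (343) and Ler (285) were close, whereas at 15 DAF Ler (3197) and Col-0 (4206) stood far above Ws (549).

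Levels at 21 and 15 DAF were compared in the wild types Ws and Ler. Of 47 members 36 had enough counts to be tested in these 6 libraries, and 25 of them were lower at 21 than at 15 DAF and 0 higher, against 14.4% of the 11314 genes tested that were lower and 7.07% that were higher. The log2 change was -4.64 (SE 0.65, adjusted p = 0.000334, edgeR, 2 libraries per day) for LHCA3, -3.39 (SE 0.60) for LHCB4.3 and -2.59 (SE 0.48) for PETC, and these 3 were called whichever library was omitted. LHCA5, at 1.22 (SE 0.60), and FD2, at 0.36 (SE 0.65), did not pass. Ler carried most of the fall, with a median change from 15 to 21 DAF of -3.03 in log2 normalized CPM plus 2 against -0.50 in Ws, where 38 members were lower and 7 higher at 21 DAF, and omitting Ler 15 left 3 and Ler 21 left 5. With Col-0 included it was 0.

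Changes over days within the mutants were taken library by library, with no test. The median change from 15 to 21 DAF was -0.18 in lec1-1, -0.88 in abi3-5 and 1.14 in fus3-3, where 46 of the 47 members were higher at 21 DAF, and it was -3.15 in abi3-1 and -1.87 in Col-0. From 15 to 17 DAF all 47 members had higher values at 17 DAF in lec1-1 (median 1.16) and in fus3-3 (median 1.96). The slope over days in lec1-1 and abi3-5 minus that in Ws and Ler, scaled to the 6 days from 15 to 21 DAF, had a median of 1.94 (1.19 without Ler 15, 0.75 without Ler 21 and 3.39 without Ws 21), and 0 members passed by edgeR (15 at an unadjusted p under 0.05, and 7 with DESeq2), against 1.02% and 16.6% of all genes. Omitting lec1-1 17 gave 2, lec1-1 21 gave 4 and Ler 17 gave 1.

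For 7 pairs of near-duplicate genes the share of each copy was compared between the intolerant mutants and their wild types, by an exact two-sided permutation test within backgrounds over libraries with at least 10 counts for the pair. PSAD1 took 36.0% of PSAD counts in 7 wild-type libraries and 80.5% in 9 mutant libraries, as means over backgrounds, a difference of 44.5 percentage points (exact permutation p = 0.000625, adjusted over the 7 pairs 0.00438). By library the share was 74.5% to 86.3% in the 9 mutant libraries and 8.33% to 60.9% in the 7 wild-type libraries, without overlap, and 63.9% and 66.8% in lec2-1, which was not in the test. Ws entered with 1 library, on 24 counts. With a minimum of 30 counts per library, which only Ler 15 and Col-0 15 reach among the wild types, the PSAD1 difference was 25.3 points. So few arrangements of libraries remained there that PSAD1 could not have passed, and that setting cannot decide about it. In the same setting 0 pairs passed. LHCB4.1 within LHCB4.1 and LHCB4.2 shifted by 16.4 points (exact permutation p = 0.023, adjusted 0.0805), PSAH1 within PSAH by 11.7 (adjusted exact p = 0.0875) and PSBQ1 within PSBQ by 19.4 (adjusted exact p = 0.14), and these did not pass. The PSAE, PSBO and PETE pairs shifted by 0.863, -1.56 and 1.999 points (adjusted exact p = 0.95, 0.7 and 0.7). For PSBQ and PSAE no Ws library reached 10 counts, so those tests used the Ler and Col-0 backgrounds alone. On these few counts the PSBQ1 share was 33.3%, 50% and 37.5% in Ws, above the 22.4%, 26.3% and 22.2% in lec1-1. LHCB4.1 passed too when Ws 21, Ler 21 or fus3-3 17 was omitted. PSAD1 and PSAD2 share 86.28% of their coding bases and no 50-base window of their transcripts.

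**Figure D5:**
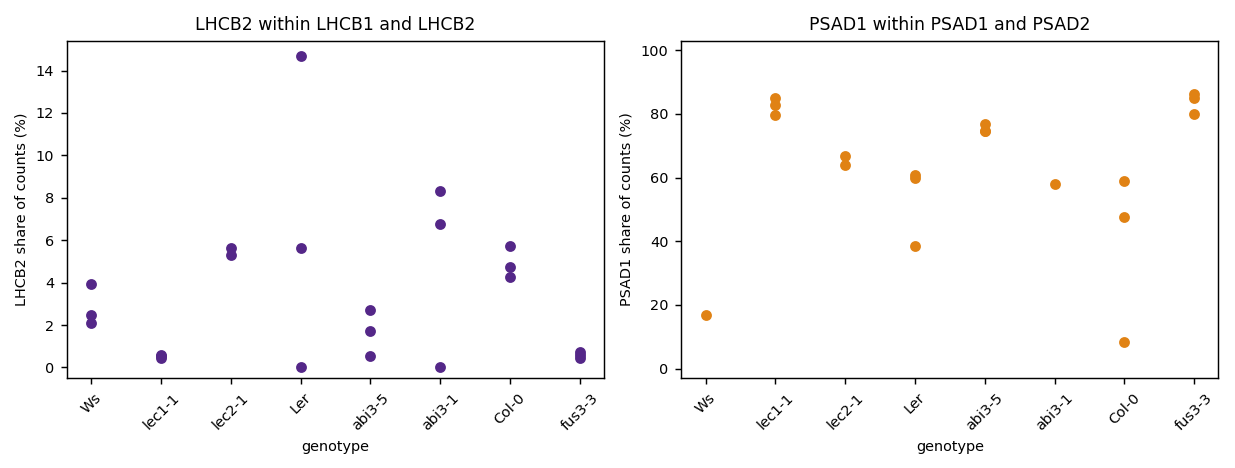
Share of LHCB2 in LHCB1 and LHCB2 counts (left) and of PSAD1 in PSAD1 and PSAD2 counts (right), 1 point per library with at least 10 counts for the family, by genotype. LHCB2 stays below 0.8% in lec1-1 and fus3-3, and PSAD1 lies above 74% in all libraries of lec1-1, abi3-5 and fus3-3.

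Levels of different members were compared per kilobase of transcript. LHCB1.3 had the highest mean in lec1-1 (2574 normalized CPM per kilobase, range 1477 to 4541), fus3-3 (1438, range 467 to 2615), abi3-5 (796, range 667 to 959) and Col-0 (206, range 43.2 to 436). Its range over the days overlapped that of the next gene in each, which was LHCB1.5 in lec1-1 (837.5, range 249.5 to 2013), LHCB1.2 in fus3-3 (405, range 130.2 to 895) and PSBR in abi3-5 (602.5, range 288 to 940.2) and Col-0 (113, range 40.2 to 219.5). Within each lec1-1 library LHCB1.3 still stood above LHCB1.5, with 12247, 25152 and 9165 counts against 1759, 9475 and 1139. In fus3-3 it had 5300, 30276 and 7497 counts against 1469, 10308 and 1150 of LHCB1.2. Transcript lengths are 1230 (LHCB1.3), 1045 (LHCB1.5) and 1223 bases (LHCB1.2). In lec2-1 LHCB1.3 (717) and LHCB1.5 (711.5) did not differ beyond the spread of their libraries. PETC led in Ws (104, range 34.5 to 145), followed by LHCB1.3 (37.6, range 28.1 to 47.8). These ranges overlapped, although PETC stood above LHCB1.3 in each Ws library. PSBR, a photosystem II subunit gene, led in Ler (148, range 32.9 to 240) and abi3-1 (124, range 27.7 to 307), with ranges that overlapped those of PETC (135) in Ler and LHCB1.5 (117) in abi3-1.

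Of 15 chlorophyll synthesis genes 13 rose in lec1-1, 9 in lec2-1, 8 in abi3-5, 8 in fus3-3 and 0 in abi3-1, with medians of 4.74, 4.26, 3.00, 2.05 and -0.20, and 0 fell in any of them. The shares of all genes that rose were 14.5%, 1.85%, 4.24% and 10.3% in the first 4 of these, for this list and those that follow. In lec1-1 HEMA1, for the step that commits glutamate to tetrapyrroles, rose by 5.30 (SE 0.88), CHLD, a subunit of magnesium chelatase, by 3.92 (SE 0.69), and PORB, a light-dependent protochlorophyllide reductase, by 4.95 (SE 0.92). CHLG, chlorophyll synthase, rose by 2.92 (SE 0.58) in abi3-5 and 2.36 (SE 0.56) in fus3-3, and PORC by 5.46 (SE 1.1) and 4.52 (SE 0.97). In lec2-1 omitting Ws 15 left 0 chlorophyll genes, Ws 17 or the earlier lec2-1 library 2, Ws 21 3 and lec2-1 21 5. In abi3-5 omitting abi3-5 21 left 3, Ler 17 or Ler 21 left 4 and either lec2-1 library left 5. In fus3-3 omitting Col-0 21 or fus3-3 17 left 4, and the Col-0 background fitted alone gave 1. Of 5 genes for the insertion of antenna proteins into the thylakoid 2 rose in lec1-1, 1 in lec2-1, 2 in abi3-5 and 4 in fus3-3. CPSRP43, a carrier of antenna proteins in the stroma, rose in each, by 4.49 (SE 0.88), 4.48 (SE 0.91), 4.38 (SE 0.88) and 3.82 (SE 0.83).

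Of 15 other thylakoid genes, 13 of which were tested, 8 rose and 1 fell in lec1-1, 2 rose in lec2-1, 2 rose in abi3-5, 4 rose and 1 fell in fus3-3, and 0 passed in abi3-1. In lec1-1 ATPC1, the gamma subunit of ATP synthase, rose by 5.27 (SE 1.04), and LHCB7, a rare antenna homologue, fell by 1.81 (SE 0.51). Among 8 regulators of photosynthesis genes 0 passed in lec1-1, lec2-1 or abi3-1 (3, 1 and 2 at an unadjusted p under 0.05), 1 rose in abi3-5 and 3 in fus3-3. GNC, a GATA factor that promotes greening, rose by 3.58 (SE 0.91) in abi3-5 and 2.26 (SE 0.74) in fus3-3. GLK1, a factor that activates antenna genes, rose by 4.06 (SE 0.93) in fus3-3. Of 5 light-stress relatives of the antenna genes SEP1 rose in lec1-1, lec2-1, abi3-5 and fus3-3, by 4.25 (SE 0.60), 2.56 (SE 0.61), 2.11 (SE 0.54) and 1.95 (SE 0.54). The other 4 (ELIP1, ELIP2, OHP1 and OHP2) passed in none of these, and the medians of all 5 were -0.55, 0.54, -0.66 and -0.06, with ELIP2 lowest in fus3-3 at -4.42 (SE 1.73, adjusted p = 0.0795, edgeR).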

How the data were processed

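Raw counts per locus were deposited for 24 columns, made by the authors against TAIR10, per the submitters' processing notes; the aligner, counter and use of strand are not given in the sources used here. Counts were fitted in R 4.3.3 with edgeR 4.0.16 (limma 3.58.1): filterByExpr with a minimum count of 10, TMM scaling (factors 0.486 to 1.92), and quasi-likelihood tests over 23 distinct libraries with genotype and day as terms, adjusted over 16085 genes by Benjamini-Hochberg. A gene was called at an adjusted p under 0.05, and the SE is the absolute log2 fold change over the square root of F. The day comparison used Ws and Ler, and the slope comparison these with lec1-1 and abi3-5. The deposited normalized table was not used. Normalized CPM was computed from the counts. Intervals and floors cover counting error only.

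The members and lists were chosen with earlier results of these data known. Values by library are given for up to 3 genes per role with the smallest adjusted p in lec1-1 against Ws, for genes of the paralog pairs and for genes against the majority; further values shown for contrast were chosen after they were seen. Alternatives were DESeq2 1.42.0, other scalings, no filter, no day term, single backgrounds and the omission of each library. The main fit holds the day as a block. Labels give no replicate numbers, and libraries are paired across genotypes by their day alone. The procedure was tested on simulated data. For the count fits, changes were planted only in genes with a higher mean count, so that test does not cover members with few counts. No column was left unmapped (0).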

Additional observations from a re-analysis of the deposited data

How the results depend on the processing

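With library totals in place of TMM the median of all genes moved from near 0 to 1.21 (lec1-1), 0.66 (lec2-1), 1.49 (abi3-5), 0.29 (abi3-1) and 1.135 (fus3-3). The members' medians became 5.75, 5.78, 3.74, -0.11 and 2.74, and all 47 were above 0 in lec1-1. Of all genes 6561, 757, 8029 and 5903 were then called in lec1-1, lec2-1, abi3-5 and fus3-3. The main fit called 3808, 303, 1285 and 3057. Under the other alternatives to the whole fit 35 to 44 members were called in lec1-1, and 28 of its 38 kept the call without each library.

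Without the replicate block, that is without the day term, 2 members were called in lec2-1, 1 in abi3-5, 1 higher and 0 lower for fus3-3, 0 for intolerant against tolerant mutants and 2 for abi3-5 against abi3-1; in lec1-1 it was 35. DESeq2 gave 18 (abi3-5), 12 (fus3-3), 11 (intolerant against tolerant), 32 (abi3-5 against abi3-1), 4 (lower in Ws) and 7 (slope). Library totals gave 42, 29, 32 and 44 for the first 4 of these, and 0 lower for fus3-3. No filter gave 10, 7, 5 and 20, and 13 for the slope, and upper quartile scaling gave 9 in abi3-5 and 1 for the slope. A background fitted alone gave 12 in abi3-5, 0 higher and 0 lower for fus3-3, 26 for abi3-5 against abi3-1 and 8 lower in lec1-1 than in lec2-1. Exchanging the Col-0 days gave 16, 9, 6 and 25. Omitting both Col-0 17 and Col-0 21 gave 13 in abi3-5, 0 higher and 0 lower for fus3-3, and 21 for abi3-5 against abi3-1. The settings of both direct mutant pairs were added after the data were seen, as were the pairs in place of the joint contrast, which gave 13 (abi3) and 0 (lec), the latter with PETE1 at -1.23, CHLG at -0.19, GLK1 at -0.78 and PORC at -0.10. With Col-0 included 0 members were lower at 21 DAF. A minimum of 30 counts left 0 paralog pairs, with too few wild-type libraries for PSAD1 to pass. DESeq2 called 1952 of all genes in abi3-5 and 3807 in fus3-3, and the fit without the day term 716 and 1863. The main fit called 1285 and 3057. The cause of these moves was not tested.

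Omitting each library in turn gave 30 to 41 members in lec1-1, 1 to 42 in lec2-1, 1 to 15 in abi3-5, 0 to 15 higher and 0 to 1 lower for fus3-3, 0 to 22 for intolerant against tolerant mutants, 1 to 34 for abi3-5 against abi3-1, 0 to 1 lower in Ws, 3 to 36 over days, 0 to 4 for the slope, and 1 to 2 paralog pairs. It gave 0 for abi3-1, for lec1-1 against lec2-1 and for both differences of changes. Among shares that did not pass, PSAE ranged from -7.60 (without Col-0 15) to 9.325 points and was also below 0 without Ler 15 (-2.66) or abi3-5 21 (-3.55). PSBO ranged from -4.40 to 1.29 (without Ler 15) and was 0.33 as a log2 ratio, and PETE ranged from -0.38 (without Col-0 15) to 4.3.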
